A study of Mus musculus with 6 samples.

Results

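E14 mouse embryonic stem cells in which Tet1 and Tet2 were knocked down together were compared directly with E14 cells in which Dnmt3a was knocked down, as 1 library against 1 library out of the 6 of the study. DNA methylation had been profiled by reduced representation bisulfite sequencing (RRBS), which cuts genomic DNA at CCGG with MspI and so samples CpG-rich sequence. The cells of 1 library carried short hairpin RNAs (shRNAs) against Tet1 and Tet2, and those of the other an shRNA against Dnmt3a. The comparison used every autosomal cytosine with a methylation level in both libraries, matched by chromosome, position and strand. These were 509943 of the 733073 autosomal cytosines with a level in any of the 6 libraries. The control shRNA library took no part in the differences and serves later as a side library. A difference thus says how far apart the 2 knockdowns stood and not which of them had moved.

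TET1 and TET2 oxidise 5-methylcytosine, the first step of active DNA demethylation, and so work as erasers of the mark. DNMT3A is a de novo methyltransferase, a writer, which in embryonic stem cells acts beside DNMT3B, while DNMT1 copies methylation onto newly made DNA strands. Embryonic stem cells are known for the turnover of methylation by both kinds of enzyme, at regulatory elements above all, and for the silencing of germline genes by promoter methylation. Bisulfite reads 5-methylcytosine and 5-hydroxymethylcytosine, the first product of the TET enzymes, alike as methylated, so a level is the sum of both.

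Each library was the only one of its group. No test between the knockdowns was possible, and no p-value is given. SDs over the 19 autosomes or over cytosines describe spread within a library, not between cultures. Levels came without read counts, so the depth behind each is unknown, and the residual level of the knocked-down enzymes was not measured in these data. Levels are in percent and differences, the Tet1 and Tet2 library minus the Dnmt3a library, in percentage points.

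The Tet1 and Tet2 library stood above the Dnmt3a library on every autosome. The mean level was 33.2% ± 1.7 with Tet1 and Tet2 depleted, against 27.0% ± 1.7 with Dnmt3a depleted (SD over 19 autosomes), a difference of 6.19 ± 0.46 points. Single chromosomes ranged from 5.30 points on chromosome 14 to 6.87 points on chromosome 4. On the X chromosome, kept apart, 10579 cytosines averaged 37.1% in the Tet1 and Tet2 library and 32.4% in the Dnmt3a library. Fully unmethylated readings made up 41.4% of the Tet1 and Tet2 library and 48.4% of the Dnmt3a library. Readings above 80% made up 25.9% of the Tet1 and Tet2 library and 15.9% of the Dnmt3a library, so both ends of the scale differed.

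In percentage points, the gap was largest at sequence of intermediate methylation. The scale is bounded at both ends, which can limit differences in points there. To keep the split out of the comparison, cytosines were sorted by their level in the Dnmt3b knockdown library, which is neither of the 2 compared. Intermediate cytosines, at 20 to 80% there, averaged 61.9% ± 0.9 with Tet1 and Tet2 depleted and 41.8% ± 1.0 with Dnmt3a depleted, a difference of 20.1 ± 0.7 points over 80685 cytosines. High cytosines, above 80%, averaged 89.8% in the Tet1 and Tet2 library and 81.3% in the Dnmt3a library, 8.43 ± 0.60 points apart over 119740 cytosines. Low cytosines, below 20%, averaged 2.03% in the Tet1 and Tet2 library and 0.609% in the Dnmt3a library, 1.43 ± 0.17 points apart over 292708 cytosines. Intermediate cytosines were 16.4% of those sorted and carried 53.2% of the summed gap between the libraries, high ones carried 33.1% and low ones 13.7%. With classes set on the double knockdown of Dnmt3a and Dnmt3b the shares were 57.1% intermediate, 18.0% high and 24.9% low, so the order of high and low depended on the library that set the classes.

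In bins of 10 points the difference climbed and fell as an arch. It was 0.881 points at 0 to 10%, 11.3 at 10 to 20%, 17.2 at 20 to 30%, 21.4 at 30 to 40% and 23.9 at 40 to 50%. It peaked in the bin of 50 to 60%, where the Tet1 and Tet2 library averaged 61.1% ± 0.9 and the Dnmt3a library 36.6% ± 0.7, a difference of 24.4 ± 1.0 points over 10774 cytosines. It then narrowed to 22.0 points at 60 to 70%, 17.2 at 70 to 80%, 10.9 at 80 to 90% and 6.40 at 90 to 100%. The ratio of the 2 levels ran another way: the Tet1 and Tet2 library read 3.59 times the Dnmt3a library in the lowest bin and 1.67 times in the bin of 50 to 60%. Sorting by the Dnmt3a and Dnmt3b double knockdown, by the mean of the 2 compared libraries or by the control library put the peak at 30 to 40%, 40 to 50% and 50 to 60%.

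**Figure D1:**
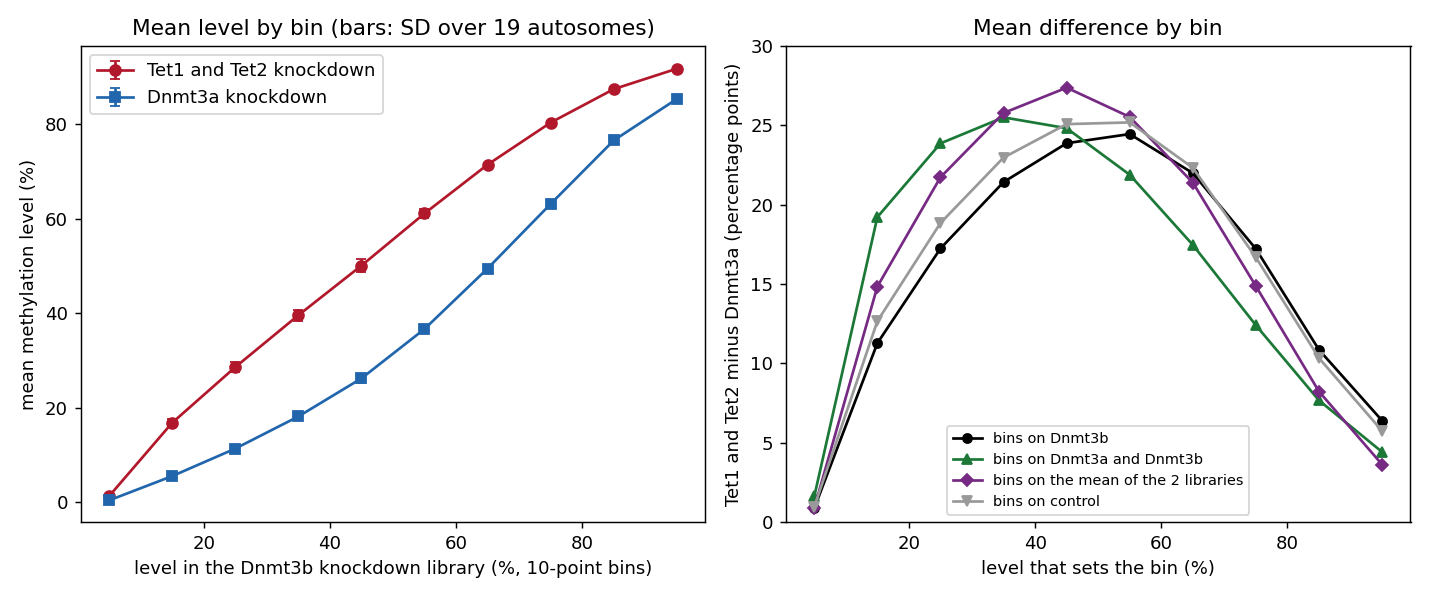
Mean methylation level (%) of the Tet1 and Tet2 library and of the Dnmt3a library against the level bin in the Dnmt3b library. Error bars there are SDs over the 19 autosomes. Their difference in percentage points is drawn beside it without error bars. It is shown for bins set on the Dnmt3b library, the double knockdown, the mean of the compared libraries and the control library. With Dnmt3b bins the difference peaks at 24.4 points in the bin of 50 to 60%. It is 0.881 points in the lowest and 6.40 points in the highest bin.

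Single cytosines were counted as apart at 20 points. The Tet1 and Tet2 library was higher by at least that much at 61403 cytosines, which is 12.0% of the 509943 compared, and the Dnmt3a library was higher at 1457, or 0.286%, a ratio of 42.1 to 1. At 50 points the counts were 3135 with the Tet1 and Tet2 library higher and 15 with the Dnmt3a library higher, and at 80 points they were 37 and 1. The median difference over all cytosines was 0.3 points, and the middle 90% lay between -2.0 and 30.4 points. Most of the compared sequence thus lay close together: 198151 cytosines, or 38.9%, read exactly 0 in both libraries.

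The move between classes was one-sided. Of the cytosines above 80% in the Tet1 and Tet2 library, 76089 were also above 80% in the Dnmt3a library, while 55913 (42.3%) were at 20 to 80% there and 141 below 20%. Of those at 20 to 80% in the Tet1 and Tet2 library, 23770 (30.2%) were below 20% in the Dnmt3a library and 4825 above 80%. Of those below 20% in the Tet1 and Tet2 library, 525 were at 20 to 80% in the Dnmt3a library and 1 above 80%. At 48865 cytosines the Tet1 and Tet2 library had some methylation where the Dnmt3a library read 0, and at 12799 cytosines the Dnmt3a library had some where the Tet1 and Tet2 library read 0.

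**Figure D2:**
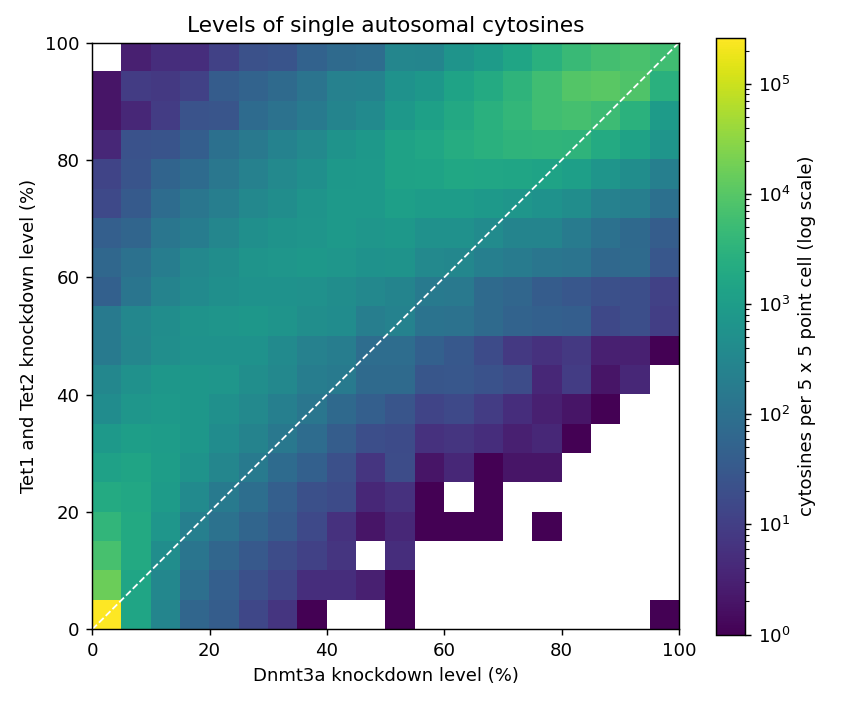
Number of autosomal cytosines (colour, log scale) by level in the Tet1 and Tet2 library and level in the Dnmt3a library, both in percent. Cytosines lie mostly on the side of the diagonal where the Tet1 and Tet2 library is higher, with 61403 there and 1457 on the other side at 20 points or more.

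A single level carries an error that depends on how methylated the site is. At CpGs with both strands listed, which are read from different molecules of 1 library, the SD of the difference between strands was 15.1 points in the Tet1 and Tet2 library and 14.1 points in the Dnmt3a library over 1587 intermediate CpGs. For 5406 low CpGs the SDs were 3.81 and 2.33 points in the same order of libraries, and for 2009 high CpGs 8.89 and 10.02 points. A difference of 20 points at 1 intermediate cytosine is therefore of the order of the strand error. Of 750 intermediate CpGs with the Tet1 and Tet2 library at least 20 points higher on the plus strand, 729 had it higher on the minus strand as well, and 489 by at least 20 points. Over all 80685 intermediate cytosines, whatever the other strand, it was higher at 91.9% and by at least 20 points at 49.3%. Most of these had 1 strand listed and were classed singly, the CpGs by the mean of both strands, so the sets differ. Of 12 intermediate CpGs with the Dnmt3a library at least 20 points higher on the plus strand, 1 had it higher on the minus strand and 0 by 20 points. Over all intermediate cytosines the Dnmt3a library was higher at 7.54%.

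Neighbouring cytosines were joined into clusters to lessen that error. Cytosines close together on the same strand can share reads, in clusters and promoters alike, so part of the error is shared and remains. There were 29891 clusters of at least 5 cytosines with neighbours at most 100 bp apart. In 2822 of them, or 9.44%, the Tet1 and Tet2 library was higher by at least 20 points on average and at 80% or more of the cytosines. The Dnmt3a library was higher by the same measure in 3, or 0.0100%. Of the 4414 clusters that were intermediate in the Dnmt3b library, 2331 (52.8%) were apart with the Tet1 and Tet2 library higher and 2 with the Dnmt3a library higher. Intermediate clusters averaged 56.9% in the Tet1 and Tet2 library and 36.1% in the Dnmt3a library, with a difference of 20.8 ± 9.4 points (SD over clusters), and the Tet1 and Tet2 library was the higher in 98.6% of them. Of 5021 high clusters 399 (7.95%) were apart in that direction, and of 20097 low clusters 72.

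The strands again repeated the direction. Where an intermediate cluster had 3 or more cytosines per strand, the strands were read apart, and 867 had the Tet1 and Tet2 library at least 20 points higher on the plus strand. On the minus strand it was higher in 863 of these and by at least 20 points in 556 (64.1%), against 50.9% of all such intermediate clusters. Among high clusters the minus strand passed 20 points in 50 of 157 (31.8%), against 11.3% of all high clusters. The direction was thus shared by nearly all intermediate clusters, called or not.

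The 10 clusters furthest apart averaged between 56.0 and 88.3% in the Tet1 and Tet2 library and between 5.20 and 36.0% in the Dnmt3a library. Positions are on mouse build mm9, for which no gene annotation was used here. These clusters were chosen as the extremes, and a second library pair could be expected to show smaller gaps there. A cluster of 5 cytosines at chr5:122388711-122388845 averaged 71.9% ± 22.1 in the Tet1 and Tet2 library and 12.5% ± 10.6 in the Dnmt3a library (SD over cytosines), the widest gap at 59.4 points. Its cytosines read 42.9, 75, 83.3, 58.3 and 100% with Tet1 and Tet2 depleted, against 9.1, 0, 12, 12 and 29.2% with Dnmt3a depleted. The levels of the 2 libraries did not overlap at this cluster, but neighbouring cytosines can share reads. Levels at some of these clusters moved in coarse steps, as few reads would give. At chr1:47809450-47809488 the Dnmt3a library read 30, 50, 40, 20 and 40%.

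The largest of these clusters had 7 cytosines. Those at chr2:164964406-164964524 read 45.1, 58.2, 71.2, 66.8, 75.5, 66.8 and 58.7% in the Tet1 and Tet2 library, against 4.9, 7.3, 15.9, 11, 12.3, 8.5 and 20.3% in the Dnmt3a library. Each cytosine was at least 38.4 points higher with Tet1 and Tet2 depleted, and the ranges did not overlap. The 7 at chr15:101760304-101760352 averaged 69.7% ± 10.7 in the Tet1 and Tet2 library and 15.7% ± 11.7 in the Dnmt3a library. All of them were read on the minus strand.

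The other 7 had 5 or 6 cytosines each. At chr1:74840028-74840069 the difference was 57.6 points, at chr1:47809450-47809488 it was 52.3, and at chr16:94756623-94756672 it was 52.0. At chr13:6631171-6631268 it was 51.9 points, at chr9:114921510-114921640 it was 50.8, and at chr6:136467414-136467452 it was 50.3. At chr5:37133637-37133785 it was 52.1 points, and 1 of its 6 cytosines went the other way, by -4.9 points. The clusters at chr1:74840028-74840069, chr1:47809450-47809488, chr16:94756623-94756672 and chr6:136467414-136467452 were each read on a single strand.

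The 3 clusters with the Dnmt3a library higher were less far apart. At chr14:68742779-68742828 the 8 cytosines averaged 12.5% ± 6.3 in the Tet1 and Tet2 library and 35.6% ± 9.1 in the Dnmt3a library, all read on the minus strand. The difference of -23.1 points was -12.2 points when neighbours up to 300 bp apart were joined, short of the call. At chr8:13795590-13795638 the 5 cytosines averaged 72.0% ± 5.6 in the Tet1 and Tet2 library and 92.2% ± 4.5 in the Dnmt3a library, and all 5 were lower with Tet1 and Tet2 depleted. At chr2:174125948-174126021 the 11 cytosines averaged 36.5% ± 14.0 in the Tet1 and Tet2 library and 58.4% ± 8.2 in the Dnmt3a library, a difference of -21.8 points. That difference was carried by 1 strand, at -32.4 points on the plus strand and -3.32 points on the minus strand, and it was -4.10 points with the wider joining.

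The other 4 libraries, which took no part in calling clusters, were read at the same places. At 2146 intermediate clusters called with the Tet1 and Tet2 library higher, the Tet1 and Tet2 library averaged 61.1%, the Dnmt3a library 33.4%, the double knockdown of Dnmt3a and Dnmt3b 39.3%, the Dnmt3b library 54.9%, the Dnmt1 library 8.78% and the control library 52.5%. At 1872 intermediate clusters not called, the same libraries stood at 52.3, 38.9, 40.9, 51.4, 9.92 and 50.2%. The call itself uses the Tet1 and Tet2 library and the Dnmt3a library, so their levels in the 2 sets are a description of the choice.

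The double knockdown minus the Dnmt3b library, a contrast that uses neither compared library, was -15.5 ± 8.0 points (SD over clusters) at called intermediate clusters and -10.5 ± 7.8 points at the others. It was at least 20 points lower in 26.9% of the called and 9.88% of the other intermediate clusters. At high clusters it was -12.6 points where called and -4.95 points elsewhere. The Dnmt3b library also set the level classes, so it is not independent of the split into intermediate and high. Called and other clusters were not matched for level within a class. At high clusters the Dnmt3b library averaged 84.5% where called and 88.6% elsewhere, so the call and the level cannot be told apart there. The Dnmt1 library averaged at most 21.0% in the called and uncalled sets of both classes.

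**Figure D3:**
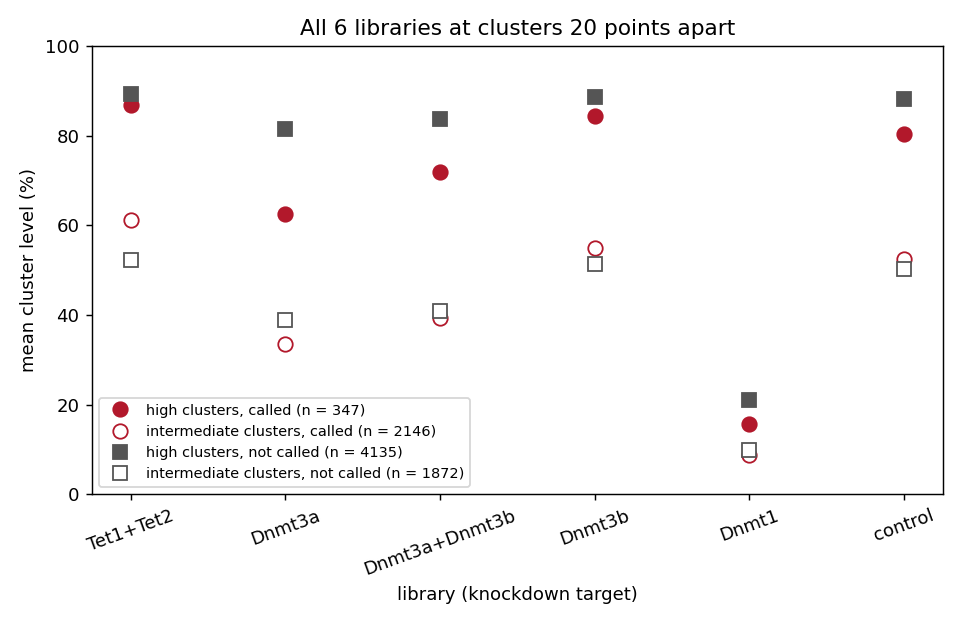
Mean level (%) of each of the 6 libraries at clusters called with the Tet1 and Tet2 library at least 20 points above the Dnmt3a library (circles) and at clusters not called (squares), for high (filled) and intermediate (open) clusters. At called intermediate clusters the double knockdown (39.3%) lies nearer to the Dnmt3a library (33.4%) and the Dnmt3b library (54.9%) nearer to the Tet1 and Tet2 library (61.1%).

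The gap went with the density of measured cytosines in a way that differed by level class. Density was the number of cytosines with a level in both libraries within 100 bp, so it also reflects which cytosines were read. At low cytosines the difference was 3.04 points in the sparsest of 4 density groups and 0.357 points in the densest, while the ratio of the 2 libraries moved little, at 3.35 in the sparsest and 2.91 in the densest. At high cytosines the difference widened with density, from 7.62 points at the sparsest to 9.83 points at the densest, a rise of 2.20 points that was 0.825 points with classes set on the mean of the pair. At intermediate cytosines it was 18.8 points in the sparsest group, 21.2 in both middle groups and 20.5 in the densest. There the densest minus the sparsest was 1.71 points, and 3.15 points with classes set on the mean of the pair. Density groups were not matched for level. At intermediate cytosines the Tet1 and Tet2 library averaged 67.4% in the sparsest and 51.8% in the densest group. The Dnmt3a library averaged 48.6% and 31.3% in the same order, so density and level cannot be told apart there.

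The bases beside the CpG went with the size of the gap. Cytosines inside CCGG, the MspI site, stood 18.7 points apart at intermediate level and other cytosines 21.4 points, and the contexts were compared outside CCGG with equal weights over level bins. At intermediate level the difference was 23.9 points where T followed the CpG, 22.0 where G did, 21.7 where C did and 20.7 where A did. The Tet1 and Tet2 library read nearly the same where T or A followed, at 55.1 and 55.2%, whereas the Dnmt3a library read 31.2% where T followed and 34.5% where A followed. At high level the order was the same, with 11.3 points for T, 9.66 for G, 9.48 for C and 8.41 for A, and at low level T again came first, with 6.62 points, ahead of A with 6.15, G with 5.96 and C with 5.30. The base before the CpG went with a spread of like size at intermediate level, with 23.8 points for A, 22.6 for C, 21.5 for G and 20.4 for T. The base before a CpG is the complement of the base after it on the opposite strand. The values before and after mirror each other in this way and need not be separate patterns. Flanking bases are known from biochemistry to affect DNMT3A, and how they bear on these libraries was not tested.

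Distance from unmethylated stretches was read as well. Stretches of at least 10 neighbouring cytosines averaging below 5% were taken as unmethylated. Intermediate cytosines within 500 bp of one stood 18.4 points apart, over 906 cytosines, and those more than 10000 bp away 19.9 points. The values between were 21.0 and 21.5 points. The distance groups were not matched for level. Within 500 bp the Tet1 and Tet2 library averaged 35.9% and the Dnmt3a library 17.5%. Beyond 10000 bp they averaged 63.2% and 43.3% in the same order, so distance and level cannot be told apart there. High cytosines within 500 bp stood 11.9 ± 13.6 points apart (SD over autosomes), with 31 cytosines only. They stood 13.0 points apart at distances over 500 and up to 2000 bp, among 1021 cytosines, 10.7 points from there to 10000 bp and 8.20 points further away.

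In windows of 1 Mb with at least 50 intermediate cytosines, the Tet1 and Tet2 library was the higher in all 488. The median difference was 21.4 points with an SD of 2.96. The highest was 30.1 points at 30 to 31 Mb of chromosome 16, with 65.1% in the Tet1 and Tet2 library and 35.0% in the Dnmt3a library. The windows at 98 to 99 Mb of chromosome 13, which holds the placed promoter of Arhgef28, and at 101 to 102 Mb of chromosome 3, which holds that of Igsf3, followed at 29.6 and 27.9 points.

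Of the 488 windows 4 were under 10 points. At 174 to 175 Mb of chromosome 2, 106 intermediate cytosines averaged 51.7% in the Tet1 and Tet2 library and 48.0% in the Dnmt3a library, 3.70 points apart. The window holds the placed promoters of Ctsz, Atp5e, Gm38546 and Prelid3b, and 1 of the 3 clusters with the Dnmt3a library higher. At 22 to 23 Mb of chromosome 11, 51 cytosines averaged 50.5% in the Tet1 and Tet2 library and 45.7% in the Dnmt3a library, 4.78 points apart. It holds the placed promoters of B3gnt2, Commd1 and Zrsr1, of which Zrsr1 is known to be imprinted. How many of all windows hold an imprinted gene was not counted. The window at 68 to 69 Mb of chromosome 14, which also holds 1 of the 3 clusters, stood 4.57 points apart over 53 cytosines and that at 3 to 4 Mb of chromosome 9 stood 7.03 points apart. These windows were singled out for their low values.

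Promoters were named by placing RefSeq promoter sequences of build GRCm38.p6, from 250 bases before to 50 bases after the start, on the listed cytosines. A sequence was placed where the spacing and 5-base contexts of at least 5 CpG cytosines matched at 1 place only, on the chromosome that RefSeq names. Of 32851 sequences 5551 were placed, for 5034 genes, and 4119 gene promoters had at least 5 cytosines in both libraries. The method favours CpG-rich promoters, most of which are unmethylated in any cell.

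Promoters were mostly alike in the 2 libraries. The median difference over the 4119 was 0 points and 3578 (86.9%) were within 1 point. The Tet1 and Tet2 library was higher by at least 20 points at 25, or 0.607%, and the Dnmt3a library at 0. At 10 points the counts were 91 (2.21%) with the Tet1 and Tet2 library higher and 1 (0.0243%) with the Dnmt3a library higher. The gap again went with the level. Of the 54 promoters that were intermediate in the Dnmt3b library, 21 were past 20 points, with a median of 18.9 points. Of the 12 high ones 3 were past 20 points, and of the 3974 low ones 1 was.

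**Figure D4:**
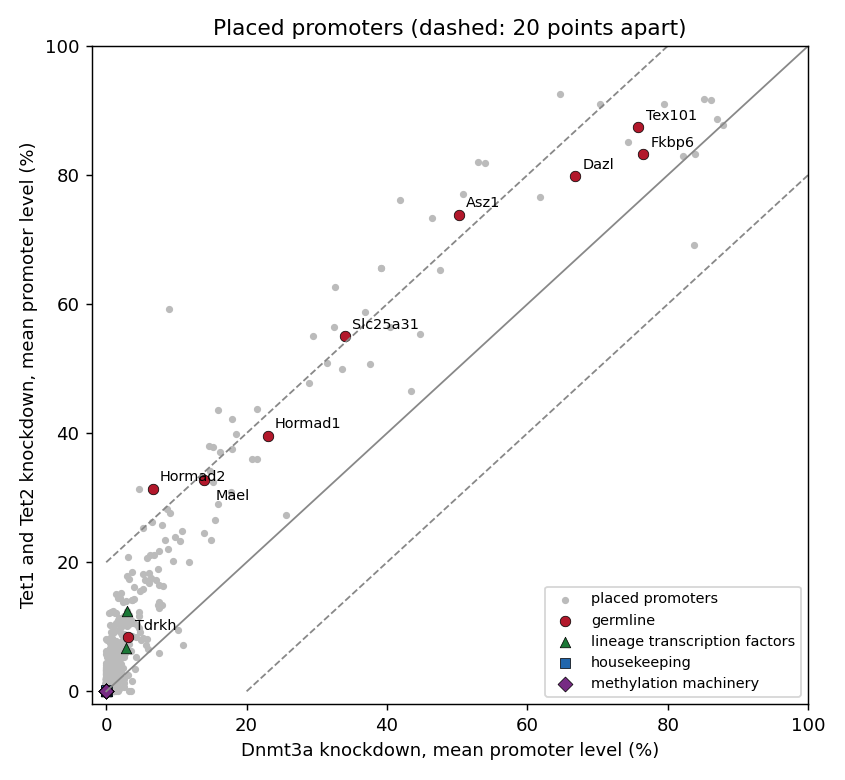
Mean level (%) of each of 4119 placed promoters in the Tet1 and Tet2 library (y axis) and in the Dnmt3a library (x axis), with germline, lineage, housekeeping and methylation machinery genes marked. Dashed lines lie 20 points from the diagonal. The 25 promoters beyond the upper dashed line are higher with Tet1 and Tet2 depleted, and 0 lie beyond the lower one.

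Germline genes were the list with methylated promoters. These genes act in germ cells and are silent in most other cells, with methylated CpG-rich promoters. Of 36 listed, 9 had a placed promoter with at least 5 cytosines, and the Tet1 and Tet2 library was the higher at all 9. Of these 3 were past 20 points and 7 past 10, with a median of 16.6 points. Beside this stand the median of 0 points over all 4119 placed promoters and that of 18.9 points over the 54 that were intermediate in the Dnmt3b library. The germline list was not split by level, so its median is not directly comparable with the second of these. The 4 germline promoters furthest apart are shown from 250 bases before the start to the last base before it, 5′ to 3′ in the direction of the gene, with the CpGs that were measured in capitals. They show how many CpGs of each promoter were measured: 8 of 15 in Asz1 on chromosome 6, 14 of 18 in Slc25a31 on chromosome 3, 5 of 10 in Hormad2 on chromosome 11 and 4 of 18 in Mael on chromosome 1.
Asz1: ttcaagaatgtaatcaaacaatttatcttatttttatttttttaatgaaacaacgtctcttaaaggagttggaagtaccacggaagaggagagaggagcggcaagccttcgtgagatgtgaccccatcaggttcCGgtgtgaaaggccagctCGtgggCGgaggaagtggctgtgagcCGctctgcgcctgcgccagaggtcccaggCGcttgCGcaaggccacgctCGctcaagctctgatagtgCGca
Slc25a31: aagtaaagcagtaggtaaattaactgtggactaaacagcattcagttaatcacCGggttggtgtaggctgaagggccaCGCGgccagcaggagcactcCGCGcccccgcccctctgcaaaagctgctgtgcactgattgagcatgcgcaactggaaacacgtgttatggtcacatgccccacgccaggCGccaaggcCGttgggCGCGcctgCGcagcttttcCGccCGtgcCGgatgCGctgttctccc
Hormad2: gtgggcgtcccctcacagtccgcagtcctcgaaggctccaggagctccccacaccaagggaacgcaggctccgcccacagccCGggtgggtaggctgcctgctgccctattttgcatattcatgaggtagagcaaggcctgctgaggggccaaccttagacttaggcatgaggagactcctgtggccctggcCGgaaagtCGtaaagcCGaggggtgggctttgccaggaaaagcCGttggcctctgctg
Mael: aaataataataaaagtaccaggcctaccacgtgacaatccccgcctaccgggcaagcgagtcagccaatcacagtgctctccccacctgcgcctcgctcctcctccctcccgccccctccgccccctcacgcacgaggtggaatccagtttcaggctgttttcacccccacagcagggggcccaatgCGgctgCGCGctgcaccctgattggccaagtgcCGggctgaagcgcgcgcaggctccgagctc

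Hormad2, whose protein sits on the axes of meiotic chromosomes, had the widest gap of the list and a low level in the Dnmt3a library. At bases -168, -58, -57, -50, -42 and -15 from the start, its cytosines read 4.3, 40.6, 54.5, 26.7, 34.7 and 27.7% with Tet1 and Tet2 depleted, against 0, 3.4, 7.7, 6.8, 11.7 and 10% with Dnmt3a depleted. The means were 31.4% in the Tet1 and Tet2 library and 6.60% in the Dnmt3a library, 24.8 points apart. Apart from the outermost cytosine, which was near 0 in both, the libraries did not overlap.

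Asz1, needed for piRNA-guided silencing of transposons in germ cells, averaged 73.9% ± 10.6 in the Tet1 and Tet2 library and 50.3% ± 10.5 in the Dnmt3a library (SD over cytosines). All 11 cytosines were higher with Tet1 and Tet2 depleted, by 23.6 points on average. Slc25a31, an ADP/ATP carrier of the testis, averaged 55.03% in the Tet1 and Tet2 library and 34.03% in the Dnmt3a library over 18 cytosines, of which 17 were higher with Tet1 and Tet2 depleted. Its cytosines spread widely, between 15.1 and 81.6% in the Tet1 and Tet2 library and between 9.0 and 78.9% in the Dnmt3a library, so the ranges overlapped. Mael, another piRNA pathway gene, averaged 32.8% in the Tet1 and Tet2 library and 14.0% in the Dnmt3a library, with 6 of 6 cytosines higher in the Tet1 and Tet2 library.

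The other 5 germline genes, beyond the rule for named genes, complete the list. The meiotic axis gene Hormad1 averaged 39.6% in the Tet1 and Tet2 library and 23.0% in the Dnmt3a library. Dazl, an RNA-binding protein of germ cells, averaged 79.8% in the Tet1 and Tet2 library and 66.8% in the Dnmt3a library, and Tex101, a testis surface protein, 87.4% and 75.8% in the same order. Fkbp6, needed for meiosis in males, averaged 83.2% in the Tet1 and Tet2 library and 76.5% in the Dnmt3a library. Tdrkh, a piRNA factor with a nearly unmethylated promoter, averaged 8.36% in the Tet1 and Tet2 library and 3.06% in the Dnmt3a library. The libraries differed by 23.6 points at Asz1 and by 6.74 points at Fkbp6, both of them methylated promoters. Asz1 and Fkbp6 stood at 77.5 and 77.7% in the Dnmt3b library, but at 68.3 and 79.8% in the control library.

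The 15 promoters furthest apart are given next, beyond Hormad2. Zglp1, a zinc-finger regulator of female germ cell fate, averaged 31.3% in the Tet1 and Tet2 library and 4.68% in the Dnmt3a library. From base -107 to base 45 its cytosines read 40, 30, 36.4, 18.2, 27.3, 33.3, 25 and 40% with Tet1 and Tet2 depleted, against 7.4, 7.4, 7.4, 3.7, 0, 5.7, 2.9 and 2.9% with Dnmt3a depleted. The ranges did not overlap, though neighbouring cytosines on the same strand can share reads. Tmprss12, a serine protease of the testis, averaged 54.99% in the Tet1 and Tet2 library and 29.4% in the Dnmt3a library over 8 cytosines, and 1 of them read 50% in both.

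**Figure D5:**
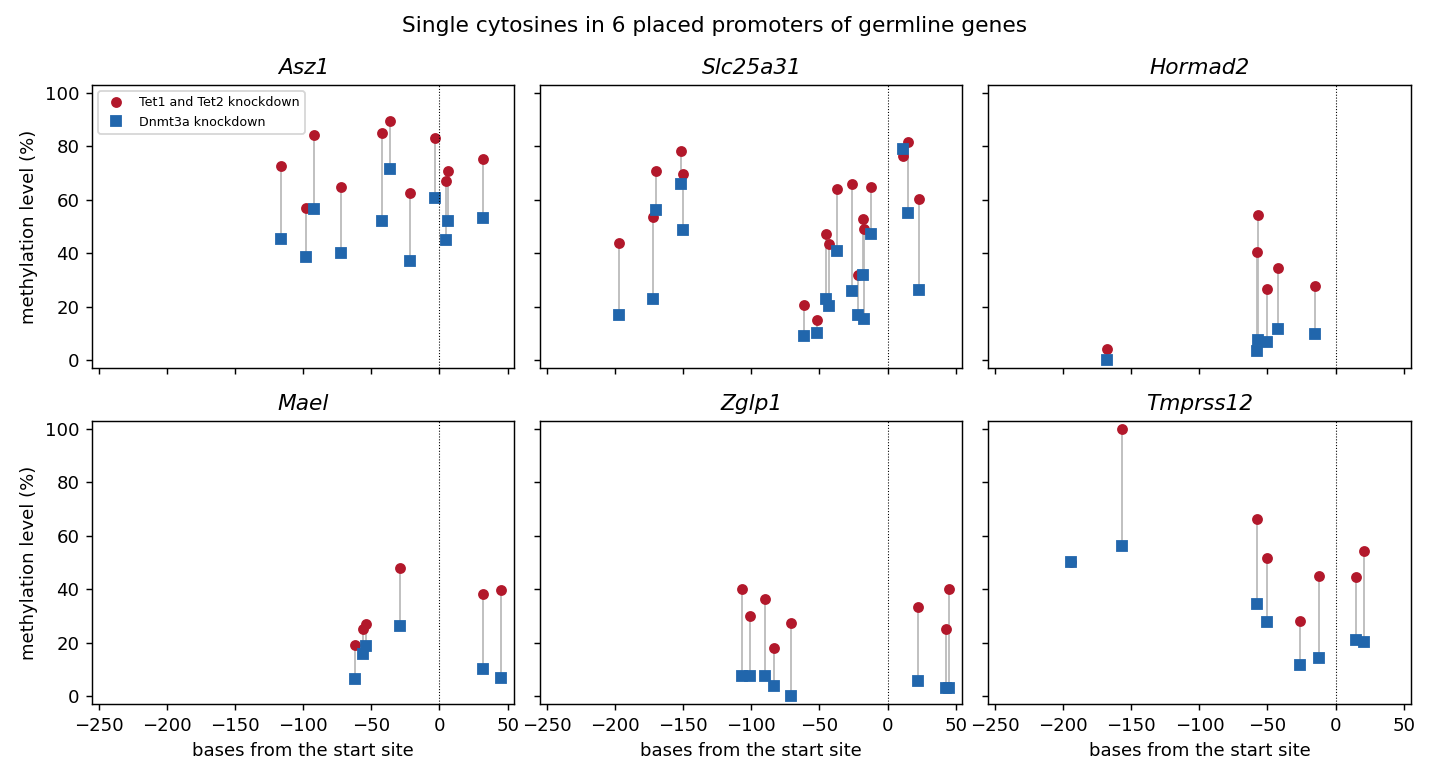
Methylation level (%) of single cytosines in the Tet1 and Tet2 library (circles) and the Dnmt3a library (squares) against the distance from the start site in bases, for 6 placed promoters. At Hormad2 and Zglp1 the Dnmt3a library stays at or below 11.7% while the Tet1 and Tet2 library reaches 54.5% and 40%, and at Asz1 both libraries are methylated throughout.

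Gm44140, a gene model, had the widest gap of any placed promoter, with 59.3% ± 21.2 in the Tet1 and Tet2 library and 8.98% ± 7.57 in the Dnmt3a library over 6 cytosines of the plus strand. They are the 6 cytosines of the cluster at chr6:136467414-136467452, which also lies in a placed promoter of Atf7ip, a partner of histone methylation enzymes. Arhgef10l, a guanine nucleotide exchange factor, averaged 76.1% in the Tet1 and Tet2 library and 41.9% in the Dnmt3a library, with all 7 cytosines higher in the Tet1 and Tet2 library and like differences on the plus and minus strands, 34.4 and 34.2 points. Plut, a noncoding RNA beside the pancreatic gene Pdx1, averaged 62.7% in the Tet1 and Tet2 library and 32.6% in the Dnmt3a library. Lypd3, a surface protein of epithelia, averaged 42.2% in the Tet1 and Tet2 library and 17.9% in the Dnmt3a library.

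Some of the 15 share sequence and are not separate observations. Slc30a3, which loads zinc into synaptic vesicles, averaged 82.1% in the Tet1 and Tet2 library and 52.9% in the Dnmt3a library, and the window of its neighbour Dnajc5g held most of the same cytosines. Ctnnd1, which encodes p120 catenin, and Btbd18, a regulator of piRNA precursors in the testis, had the same 10 cytosines, at 65.7% in the Tet1 and Tet2 library and 39.1% in the Dnmt3a library. 4930594O21Rik averaged 92.6% in the Tet1 and Tet2 library and 64.7% in the Dnmt3a library. The remaining 3, the gene models Gm51541, Gm2511 and Gm30283, stood 27.6, 27.1 and 26.3 points apart.

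Promoters of the other lists were nearly unmethylated in both libraries. Of 25 listed genes of the methylation machinery, 9 had a placed promoter, Tet1, Tet2, Dnmt1 and Uhrf1 among them, and all 9 were within 1 point. The 5 placed of 20 housekeeping genes were within 1 point too. Of 38 lineage transcription factors 6 were placed. Foxa2, an endoderm regulator, was the furthest apart, with 12.4% in the Tet1 and Tet2 library and 2.94% in the Dnmt3a library, and Gata2, a blood regulator, averaged 6.73% in the Tet1 and Tet2 library and 2.78% in the Dnmt3a library. The other 4 were within 1 point. The list of 2-cell and trophoblast genes had 1 placed promoter of 20, the trophoblast regulator Ascl2, at 3.19% in the Tet1 and Tet2 library and 0.887% in the Dnmt3a library.

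Sox2, the 1 placed of 25 pluripotency genes, read 0.1% in the Tet1 and Tet2 library and 0.15% in the Dnmt3a library. Fgf5, the 1 placed of 15 genes of the primed state, read 0% in both. Grb10, the 1 of 31 imprinted genes with enough placed cytosines, read 0.039% in the Tet1 and Tet2 library and 0.13% in the Dnmt3a library. These 3 promoters say nothing about the other members of their lists. Those were not placed or had fewer than 5 cytosines with a level in both libraries.

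The promoter with the Dnmt3a library furthest above was that of 4930563M20Rik, named after its value was seen. It averaged 69.1% in the Tet1 and Tet2 library and 83.8% in the Dnmt3a library, 14.7 points lower with Tet1 and Tet2 depleted. Of its 8 cytosines, all on the plus strand, 3 were higher with Tet1 and Tet2 depleted. The ranges overlapped, at 42.1 to 100% in the Tet1 and Tet2 library and 70 to 100% in the Dnmt3a library.

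Short motifs were looked up in the placed promoter sequences on both strands. The E-box CACGTG occurred in 4 of the 25 promoters past 20 points (16%), in 4 of the 9 germline promoters (44.4%), in 15 of the 76 promoters at 20% or more in the Tet1 and Tet2 library (19.7%) and in 477 of all 4119 (11.6%). It is written within the Slc25a31 and Mael sequences above. The E2F motif TCCCGC occurred in 7 of the 25 (28%), in 3 of the 9 (33.3%), in 20 of the 76 (26.3%) and in 1971 of the 4119 (47.9%). For both motifs the share past 20 points lay near that of the 76 methylated promoters. The last C of TCCCGC can be the first of CACGTG, so matches may overlap by that letter, and a match is a description of the sequence only.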

How the data were processed

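RRBS of 6 libraries, 1 per group, was used, and 2 were compared. Bisulfite-converted TruSeq libraries of MspI fragments were sequenced on an Illumina HiScanSQ, per the labels' protocols. Build mm9, Bismark 0.10.1 and CASAVA 1.8 come from the submitters' processing notes, which give no roles. How duplicate reads were handled and what coverage was required is not given in the sources used here. The authors deposited methylation levels as fractions from 0 to 1 with 3 decimals, per cytosine and strand, with 5 bases of context and no counts. The depth is thus unknown, and no interval can be given. The Tet1 and Tet2 library listed 604227 cytosines and the Dnmt3a library 583020, of which 135 and 78 had no level and were left out.

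Levels were turned into percent and joined in pandas 2.3.3 (NumPy 2.4.6, Python 3.11.15), with figures drawn in matplotlib 3.10.9. Classes and bins were set on the Dnmt3b library, and 493133 cytosines had a level there. Differences were called by size, since 1 library per group allows no test. Promoters were placed by their CpG spacing and context, with a lead of at least 3 cytosines over the next best place; before the chromosome check 99.9% lay on the chromosome named by RefSeq. The cluster rule was tested on simulated levels, with the same assumed read depth everywhere and the error of each cytosine drawn separately. Shared reads and the unknown real depth were thus not covered. The placing of promoters was tested on shuffled contexts. Named clusters are the up to 10 with the Tet1 and Tet2 library furthest above and up to 5 with the Dnmt3a library furthest above, and named promoters the 15 furthest apart past 20 points and up to 4 of each list. The members, lists and thresholds were chosen with earlier results of these data known. The alternatives were other thresholds of difference, cluster sizes and gaps, other libraries for the classes, and cytosines listed in all 6 libraries.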

Additional observations from a re-analysis of the deposited data

Results flagged for a closer look

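Mitochondrial DNA, which is outside the autosomal comparison, read slightly above 0 in both libraries. Over 118 mitochondrial cytosines with a level in the 2 libraries and in control, the Tet1 and Tet2 library averaged 0.00678% and the Dnmt3a library 0.022%, against 0% in the control library. These values passed the rule for signal above the control level on the shared sites only. Over each library's own mitochondrial cytosines the order was the other way, with 0.0358% over 246 in the Tet1 and Tet2 library, 0.019% over 137 in the Dnmt3a library and 0.0585% over 142 in the control library. The highest single cytosine was 0.5% in the Tet1 and Tet2 library and 1.4% in the Dnmt3a library. Both means lie far below the autosomal differences reported.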

How the results depend on the processing

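No value changed sign under any alternative run. The overall difference of 6.19 points was 5.42 over cytosines listed in all 6 libraries and 5.66 with each cluster weighted alike. With classes set on the double knockdown, the low, intermediate and high differences were 2.35, 18.4 and 6.21 points and the peak bin, 30 to 40%, 25.5 points. With classes set on the mean of the 2 compared libraries, low and high were 1.62 and 6.40 points, the peak bin, 40 to 50%, was 27.4 points, and the densest minus the sparsest group was -2.98 points at low, 3.15 at intermediate and 0.825 at high cytosines. Single cytosines with the Tet1 and Tet2 library higher numbered 125662 at 10 points, 26769 at 30 and 36673 over cytosines listed in all 6 libraries, and with the Dnmt3a library higher 6327, 344 and 369. Clusters with the Tet1 and Tet2 library higher numbered 6482 at 10 points, 766 at 30, 7284 with at least 3 cytosines, 317 with at least 10, 1765 with gaps up to 50 bp and 1728 over all 6 libraries. Those with the Dnmt3a library higher numbered 14 at 10 points, 0 at 30, 11 with at least 3 cytosines, 1 with at least 10 and 1 with gaps up to 300 bp. With at least 10 cytosines, 6 promoters were past 20 points. Including CCGG sites, an alternative chosen after seeing the data, put the difference between CpGs followed by T and by G at 3.52 points, against 1.95 without them. Where a stricter or looser threshold moved a count, the threshold itself sets it; for the classes, the cause was not tested. No paired analysis was possible because each group has 1 library and the labels carry no replicate numbers, and no replicate could be left out. Unknown depth limits every single level.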

Other observations

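The cytosines listed in 1 library alone differed in level. The 80770 autosomal cytosines with a level in the Tet1 and Tet2 library and none in the Dnmt3a library averaged 26.6%, which is below the mean of the shared set in that library. The 59064 with a level in the Dnmt3a library and none in the Tet1 and Tet2 library averaged 41.4%, which is above the mean of the shared set in that library. They made up 13.7% of the Tet1 and Tet2 library and 10.4% of the Dnmt3a library, and were not compared.

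Placed promoters that rank between 16th and 25th by difference, outside the rule for named genes, included Topaz1, a germ cell gene, with 56.5% in the Tet1 and Tet2 library and 32.5% in the Dnmt3a library, and Lep, which encodes leptin, with 58.8% in the Tet1 and Tet2 library and 36.8% in the Dnmt3a library. Arpp21, a gene of the brain, averaged 91.0% in the Tet1 and Tet2 library and 70.4% in the Dnmt3a library.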
